A study of Homo sapiens with 2 samples.

Results

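NeuroD1 peaks were examined at the kinesin genes of IMR-32, a human neuroblastoma line that carries extra copies of MYCN. The members were the 39 protein-coding RefSeq genes of GRCh38 whose symbol is KIF followed by a number, plus the 4 kinesin light chain genes KLC1, KLC2, KLC3 and KLC4, which gave 43 of 20037 protein-coding genes. A member was counted as having a peak when a peak of the deposited list overlapped the gene or lay up to 3 kb from either end. There was 1 library from the NeuroD1 ChIP and 1 from input chromatin, both of unmodified IMR-32 cells labelled WT, and no file of the input was used here. There was no replicate, so no test between samples was possible, and all intervals below cover counting error only. The ChIP antibody in the sample labels is the NeuroD1 antibody of CST, whereas the supplementary ChIP protocol of the study names an H3K27Ac antibody. Its reagent list holds both antibodies, and the peak list was used as it is labelled. Positions are on hg38 (GRCh38), and the gene table gives no exons, so peaks inside a gene were not placed in exon or intron. The list held 6183 peaks with a median width of 220 bp, and its total sequencing depth is unknown. Among transcription factors that mark adrenergic neuroblastoma, PHOX2A and TBX2 had a peak, while HAND2, GATA2, GATA3 and ISL1 had none.

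Kinesins are motor proteins that use ATP to move along microtubules or to shorten them. In dividing cells, mitotic kinesins push spindle poles apart, align chromosomes and close the cell during cytokinesis. In neurons, transport kinesins carry vesicles, organelles and synaptic precursors from the cell body into axons and dendrites, and kinesin light chains join cargo to the kinesin-1 heavy chains KIF5A, KIF5B and KIF5C. NeuroD1 is a basic helix-loop-helix transcription factor of neuronal differentiation, and such factors bind as dimers to E-boxes, short DNA sites of the form CANNTG.

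Of the 43 kinesin genes, 15 had a NeuroD1 peak, a share of 34.9% (21.0% to 50.9%, Clopper-Pearson exact interval at the 95% level). The share among all protein-coding genes was 21.4%. The 15 genes were KIF14, KIF16B, KIF17, KIF18B, KIF19, KIF1A, KIF1C, KIF20B, KIF21A, KIF21B, KIF22, KIF24, KIF26A, KIF3C and KLC4. KIF1A, KIF19 and KIF21B had 2 peaks each and the other 12 genes had 1, which gave 18 peaks. The other 28 genes had none, which means only that no peak was called there at this depth. The lowest number of ChIP reads at any called summit was 8, and the number needed is higher where the local background is higher. The all-gene share lay just inside the lower end of the interval of the kinesin share. When the −log10 q, the strength of the evidence for a peak after adjustment for the number of tests, had to reach 5, 12 of 43 kinesin genes had a peak (27.9%), against 17.2% of all protein-coding genes.

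Kinesin genes were longer than most genes, and over all genes the share with a peak rose with length. The median length was 55900 bp for the kinesin genes and 24115 bp for all protein-coding genes. The share of all protein-coding genes with a peak was 15.3% up to 20 kb, 22.5% from 20 to 50 kb, 24.7% from 50 to 100 kb, 29.8% from 100 to 200 kb and 38.4% over 200 kb. In the same classes, 2 of 7, 4 of 12, 6 of 13, 2 of 7 and 1 of 4 kinesin genes had a peak. The kinesin share was thus above the all-gene share in the 3 classes up to 100 kb and below it in the 2 classes of the longest genes. Each class holds few kinesin genes and no interval was computed, so no trend with length is read from this. With the all-gene share of each length class, 10.6 of the 43 genes would have a peak, beside the 15 that were found. As a share of the 43 genes, 10.6 lies inside the interval of the kinesin share given above. Counted per length of gene with 3 kb on each side, there were 4.34 peaks per Mb at the kinesin genes and 3.94 at all protein-coding genes.

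The axonal transport kinesins and the mitotic kinesins were compared first by 9 genes. None of the mitotic genes KIF11, KIF18A, KIF20A and KIF23 had a peak (0 of 4, exact interval 0% to 60.2%). Of the axonal transport genes KIF1A, KIF1B, KIF5A, KIF5C and KIF21A, KIF1A and KIF21A had a peak (2 of 5, 5.27% to 85.3%). The intervals overlapped widely, and with 4 and 5 genes a difference between the lists could not be shown. The lists also differed in gene length, with a median of 48173 bp for the mitotic list and 149893 bp for the axonal list, and the part of length in the counts was not tested. In wider lists that cover most of the family, 4 of 12 mitotic genes (33.3%, 9.92% to 65.1%) and 7 of 15 cargo transport genes (46.7%, 21.3% to 73.4%) had a peak. In the wider lists both shares were above the 21.4% of all genes, but both intervals contained that value and overlapped each other. The shares also depend on which genes are listed. KIF2A and KIF2B, relatives of KIF2C, were in neither list and had no peak. The mitotic motors CENPE and KIFC1, which are not members, had none either.

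The 4 mitotic genes of the short list had no peak nearby. KIF11 (chr10:92593130-92655395), the motor that slides spindle microtubules apart, lay 18826 bp from the nearest peak. KIF20A (chr5:138179112-138187723) and KIF23 (chr15:69414349-69448427), which act at the central spindle in cytokinesis, lay 149918 bp and 199890 bp away. KIF18A (chr11:28020619-28108156), which aligns chromosomes, lay 301967 bp away. Each of these distances is far beyond the 3 kb limit.

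In the wider mitotic list, KIF14, KIF18B, KIF20B and KIF22 had 1 peak each, and all 4 peaks lay at the start of the gene. KIF14, a motor of the midbody in cytokinesis, had the strongest of them at chr1:200620741-200621020. It had a fold enrichment of 10.5, which is the ratio of ChIP coverage plus 1 to local background plus 1, and a −log10 q of 16.8. At the summit 24 ChIP reads overlapped, with an exact Poisson interval of 15.4 to 35.7 at the 95% level. Over the local background of 1.34 this gives 6.86 to 15.4 for the fold enrichment, the kind of interval given in parentheses after each fold enrichment below, and it lies above the median of 6.79 over all 6183 peaks. The summit lay 130 bp upstream of the transcription start.

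The other mitotic peaks were near that median. KIF18B, which shortens astral microtubules, had a peak at chr17:44947650-44947893 with a fold enrichment of 7.15 (4.40 to 11.1), 18 reads and a summit 23 bp downstream of the start. KIF22, a chromokinesin that pushes chromosome arms toward the equator, had a peak at chr16:29790467-29790679 with a fold enrichment of 7.08 (4.09 to 11.5), 14 reads and a summit 190 bp upstream of the nearest of its 2 listed starts. This peak did not overlap KIF22 and ended 72 bp before it. KIF20B, which acts late in cytokinesis, had a peak at chr10:89701433-89701616 with a fold enrichment of 6.75 (3.82 to 11.2), 13 reads and a summit 80 bp upstream. The intervals of KIF18B, KIF20B and KIF22 all contained the median of all peaks, and they overlapped that of KIF14. KIF2C, KIF4A, KIF4B and KIF15 were the other genes of this list without a peak.

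Among the cargo transport genes, the endosome motor KIF16B had the highest fold enrichment of all kinesin genes. Its peak at chr20:16573283-16573610 was 328 bp wide, with a fold enrichment of 16.9 (11.8 to 23.4) and a −log10 q of 33.4. The summit held 34 reads (23.5 to 47.5), and its background was the genome-wide 1.04. It ranked 146 of 6183 peaks by fold enrichment, and its summit lay 26 bp upstream of the start. The interval lay above those of 10 of the other 17 kinesin peaks, among them KIF17, KIF18B, KIF20B, KIF21A, KIF22, KIF24 and KIF3C. It overlapped those of KLC4 and of the second KIF19 peak, the next in strength.

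KIF1A, the neuronal motor of synaptic vesicle precursors, had 2 peaks of like height around its listed starts. The peak at chr2:240820175-240820386 had a fold enrichment of 7.23 (4.18 to 11.8) and 14 reads, and its summit lay 38 bp upstream of the innermost of 3 listed starts. The peak at chr2:240820577-240820803 had a fold enrichment of 7.71 (4.53 to 12.4) and 15 reads, and its summit lay 321 bp downstream of the middle one. Both were at the genome-wide background of 1.04, and their difference was well within counting error. KIF1B, the close relative of KIF1A that carries mitochondria and synaptic vesicle precursors, lies at chr1:10210570-10381603 and had no peak, and the nearest lay 17301 bp away.

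KIF1C, the third gene of this subfamily, carries vesicles in many cell types. Its peak at chr17:4997621-4998006 was the widest of the kinesin peaks at 386 bp, with a fold enrichment of 10.1 (6.37 to 15.4), 20 reads and a summit 95 bp upstream. The summit also lay 333 bp upstream of the nearest listed start of the neighbouring gene INCA1, so this peak cannot be assigned to KIF1C alone. KIF21A, the other axonal gene with a peak, had a weak one at chr12:39443210-39443522 with a fold enrichment of 5.23 (3.08 to 8.42), a −log10 q of 4.77 and 15 reads over a background of 2.0. It lay 90 bp beside the gene, with the summit 258 bp upstream of the start.

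KIF21B, the neuronal relative of KIF21A that regulates microtubule growth, had 2 peaks inside the gene. The peak at chr1:201011770-201012016 had a fold enrichment of 9.02 (5.68 to 13.7) and 20 reads, and the peak at chr1:201017373-201017518 had a fold enrichment of 5.27 (2.99 to 8.74) and 13 reads. Both summits lay inside the gene, 11803 bp and 6256 bp from its nearer end. KIF3C, a kinesin-2 motor, had a narrow peak of 146 bp at chr2:25982415-25982560 with a fold enrichment of 5.43 (2.94 to 9.36) and 11 reads, and a summit 22 bp downstream of the start. KIF17, a dendritic motor, was counted through a peak at chr1:20661441-20661694 with a fold enrichment of 6.27 (3.48 to 10.6) and 12 reads. That peak touched the end of KIF17 that lies farthest from its start, at 56421 bp, and its summit lay 217 bp upstream of a start of DDOST, a subunit of the oligosaccharyltransferase complex.

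The kinesin-1 heavy chain genes had no peak. KIF5A (chr12:57550044-57586633) lay 25876 bp and KIF5C (chr2:148875227-149026759) 945393 bp from the nearest peak. The more widely expressed KIF5B lay 66742 bp from one, and the related cargo motors KIF3A, KIF3B, KIF13A and KIF13B had none either. KIF3B was the only one of the 28 genes without a peak that lay within 10 kb of one, at 6827 bp. Of the light chains, KLC1, KLC2 and KLC3 had none, and KLC4 was counted through a peak 2071 bp beside the gene at chr6:43077164-43077393. This was the member closest to the 3 kb limit on the inside, as KIF3B was on the outside. The KLC4 peak was strong, with a fold enrichment of 12.6 (8.45 to 18.1) and 27 reads, but its summit lay 475 bp downstream of a start of PTK7, a receptor-like pseudokinase gene.

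Of the 6 genes listed for cilia, KIF19 and KIF24 had peaks (33.3%, 4.33% to 77.7%), against 21.4% of all protein-coding genes. KIF6, KIF7, KIF9 and KIF27 had none. KIF19, which shortens ciliary microtubules, had a peak at chr17:74342205-74342534 with a fold enrichment of 11.5 (8.39 to 15.5) and 42 reads, the most of any kinesin summit. A further peak at chr17:74332931-74333209 had a fold enrichment of 7.36 (5.01 to 10.5) and 29 reads. Both stood on a raised local background of 2.66 and 3.0, and both summits lay inside the gene, 13425 bp and 6901 bp from its nearer end. KIF24, which holds back cilium formation, had the weakest kinesin peak at chr9:34329298-34329443, with a fold enrichment of 4.95 (2.61 to 8.72), a −log10 q of 2.88 and 10 reads. Its summit lay inside the gene, 4304 bp from its nearer end, and 99 bp upstream of the only listed KIF24 start, an internal one. The same summit lay 202 bp upstream of a start of the neighbouring gene NUDT2. KIF26A, an atypical kinesin in none of the lists, had a peak at chr14:104150249-104150511 with a fold enrichment of 9.16 (5.63 to 14.2) and 18 reads, 11789 bp downstream of its start. KIF2A, KIF2B, KIF12, KIF25 and KIF26B had none.

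**Figure D1:**
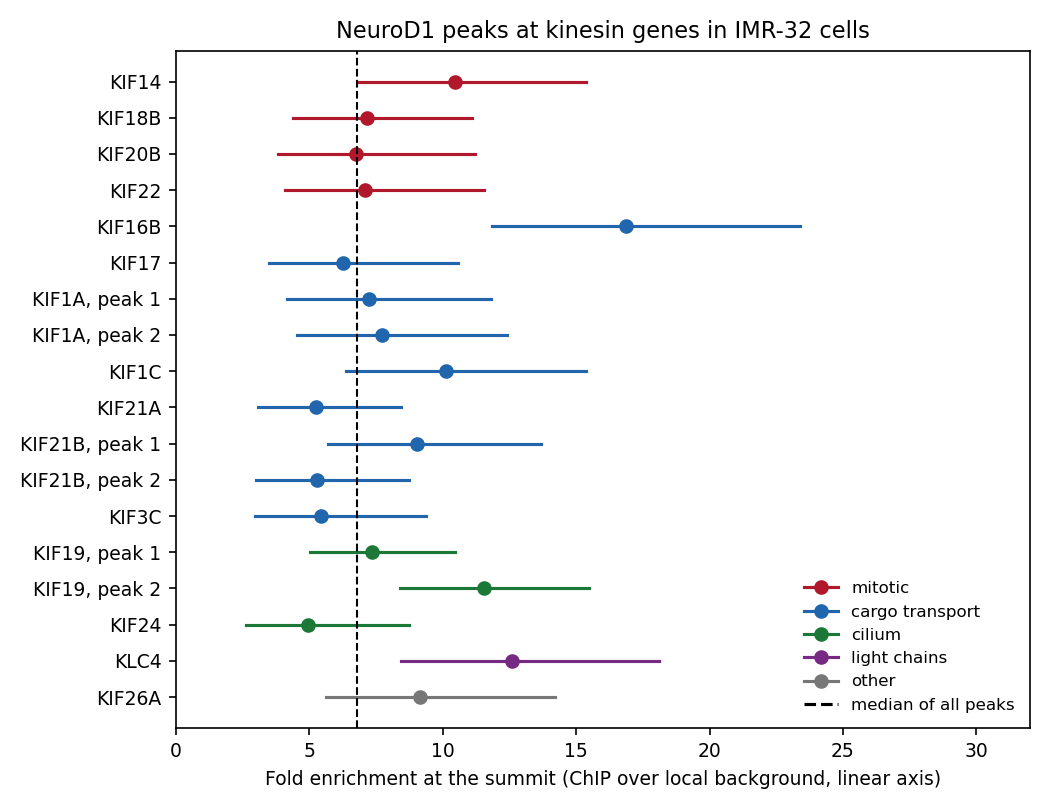
Fold enrichment at the summit (linear axis) of the 18 NeuroD1 peaks at kinesin genes, coloured by role, where lines are the 95% Poisson intervals of the ChIP reads with the background held fixed. The dashed line is the median of all peaks, 6.79, and the intervals of KIF14, KIF16B, KLC4 and the second KIF19 peak lie above it.

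Over the 18 kinesin peaks, fold enrichment was close to that of the whole list. The median was 7.29, from 4.95 to 16.9, against 6.79 over all peaks, and the median of ChIP reads was 16.5 against 17. The interval lay above the all-peak median for 4 of the 18 peaks, and for 13.2% of all peaks. The local background at the kinesin summits ran from 1.04 to 3.0. The highest values were at KIF19, on chromosome 17, where the median background of all peaks was 2.37 against 1.20 elsewhere. On that chromosome 33.3% of all protein-coding genes had a peak, and 3 of 4 kinesin genes (KIF18B, KIF19 and KIF1C, but not KIF2B). The share of all genes was also high on chromosome 12, at 33.6%, where KIF21A had a peak and KIF5A had none. Without both chromosomes, 11 of 37 kinesin genes had a peak (29.7%), against 19.9% of all protein-coding genes.

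The peaks were also counted by family. In 6 of 11 families of genes that share a number, light chains included, some members had a peak and others had none. These were KIF1A and KIF1C against KIF1B, KIF18B against KIF18A, KIF20B against KIF20A, KIF3C against KIF3A and KIF3B, KIF26A against KIF26B, and KLC4 against the other light chains. In 4 families (KIF2, KIF4, KIF5 and KIF13) no gene had a peak, and KIF21 was the only family in which every gene had one. These counts were not compared with those of unrelated genes, so nothing particular to relatives is read from them. The 4 shortest genes, KIF2B, KIF4B, KIF12 and KIF20A, had no peak, nor did the longest, KIF26B and KIF6. A gene without a peak may still hold sites below the threshold of the list, which are not given.

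**Figure D2:**
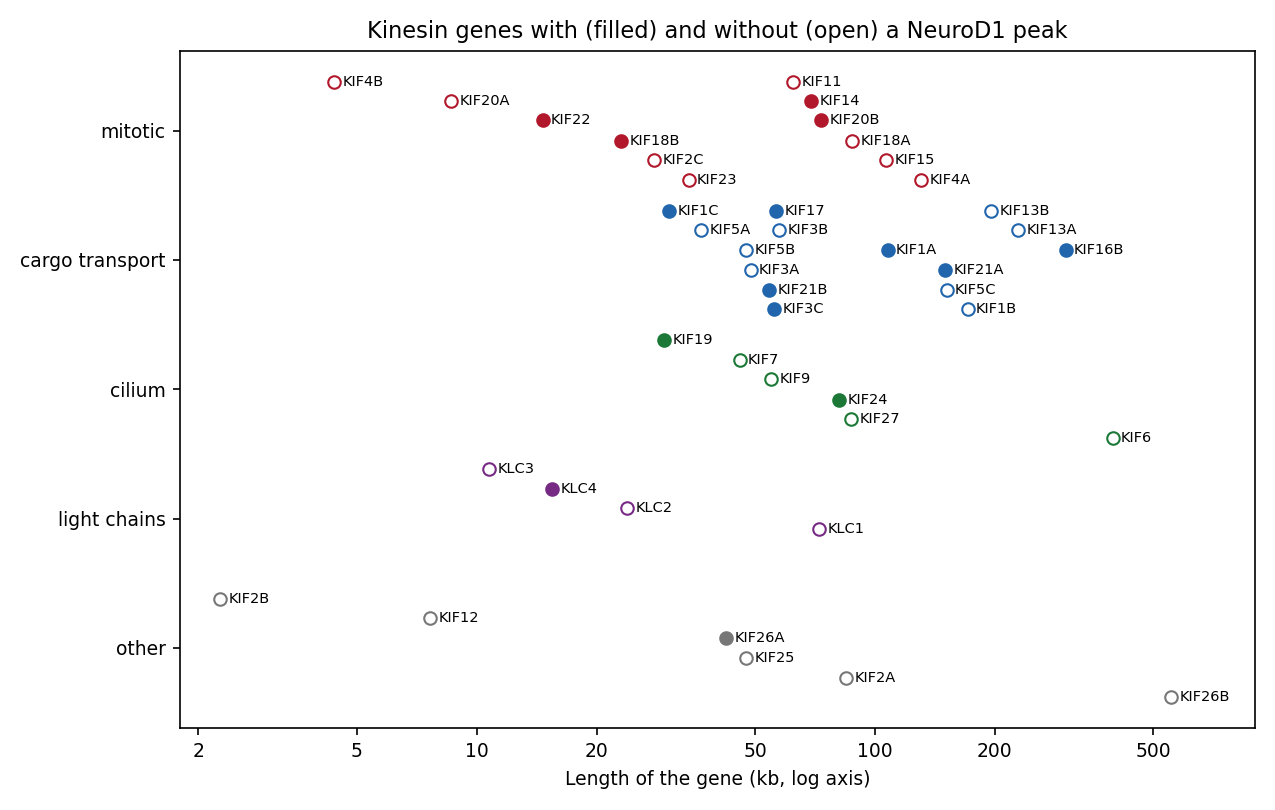
Length of the 43 kinesin genes (kb, log axis) by role, with filled points for genes with a NeuroD1 peak and open points for genes without. The 4 shortest genes and the longest gene, KIF26B, are open, and the 4 mitotic genes of the short comparison (KIF11, KIF18A, KIF20A and KIF23) are all open.

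Most kinesin peaks lay at the start of the gene. Starts were listed for 35 of the 43 genes, and for KIF5A, KIF13B, KIF19, KIF21B, KIF26B, KIF27, KLC2 and KLC4 none was listed. Of the 12 genes with a peak and a listed start, 10 had a peak within 1 kb of a start (83.3%, 51.6% to 97.9%), all but KIF17 and KIF26A. Over all protein-coding genes with a peak and a listed start, this share was 70.3%, inside that interval. Both shares leave out genes with no listed start, among them KIF19, KIF21B and KLC4, which had peaks. The KIF19 and KIF21B summits lay at least 6256 bp from either end of the gene, and the KLC4 peak 2071 bp beside it. The kinesin share over all genes with a peak is therefore not known. The 11 summits near a kinesin start ran from 258 bp upstream at KIF21A to 321 bp downstream at KIF1A, and their median was 80 bp upstream. The median of all 2333 summits near a listed start was also 80 bp upstream. Upstream of the start lay 8 of the 11 kinesin summits (72.7%) and 80.4% of all 2333. Both sets were limited to 1 kb from a start, and their difference was not tested.

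The sequence at these starts was read from the RefSeq promoter windows of GRCh38.p14, which run from 250 bases before a start to 50 after it. The strongest kinesin promoter peak, the KIF1A promoter and 2 pairs of close relatives of which 1 gene had a peak are shown 5′ to 3′ on the strand of the gene, with every CANNTG in capitals. The windows are chr20:16573399-16573698 for KIF16B, chr2:240820170-240820469 for KIF1A, chr17:44947724-44948023 for KIF18B, chr11:28108107-28108406 for KIF18A and chr5:138178862-138179161 for KIF20A, with KIF20B at chr10:89701340-89701639. KIF20A and KIF20B are on the forward strand and the others on the reverse strand.
KIF16B: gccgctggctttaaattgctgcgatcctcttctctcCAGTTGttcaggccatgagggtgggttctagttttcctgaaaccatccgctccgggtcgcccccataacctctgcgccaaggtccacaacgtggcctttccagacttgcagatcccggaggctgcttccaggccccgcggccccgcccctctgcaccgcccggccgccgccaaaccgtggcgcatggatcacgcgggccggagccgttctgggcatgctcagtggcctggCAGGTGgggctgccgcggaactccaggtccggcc
KIF1A: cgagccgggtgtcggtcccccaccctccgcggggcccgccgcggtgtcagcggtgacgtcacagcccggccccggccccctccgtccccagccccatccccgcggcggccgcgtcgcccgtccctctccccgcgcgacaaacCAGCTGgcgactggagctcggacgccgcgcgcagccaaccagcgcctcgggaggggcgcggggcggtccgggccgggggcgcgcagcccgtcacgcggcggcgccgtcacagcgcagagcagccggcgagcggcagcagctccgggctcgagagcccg
KIF18B: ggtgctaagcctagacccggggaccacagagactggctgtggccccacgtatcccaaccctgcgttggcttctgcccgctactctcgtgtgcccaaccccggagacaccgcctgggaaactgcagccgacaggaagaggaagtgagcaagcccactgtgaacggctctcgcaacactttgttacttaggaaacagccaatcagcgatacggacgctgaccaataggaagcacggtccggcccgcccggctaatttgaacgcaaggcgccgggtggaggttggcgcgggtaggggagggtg
KIF18A: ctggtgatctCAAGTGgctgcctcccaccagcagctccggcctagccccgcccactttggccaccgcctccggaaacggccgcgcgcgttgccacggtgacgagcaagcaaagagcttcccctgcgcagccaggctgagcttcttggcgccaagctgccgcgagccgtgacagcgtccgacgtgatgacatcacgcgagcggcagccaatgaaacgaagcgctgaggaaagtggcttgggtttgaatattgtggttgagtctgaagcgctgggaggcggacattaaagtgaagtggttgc
KIF20B: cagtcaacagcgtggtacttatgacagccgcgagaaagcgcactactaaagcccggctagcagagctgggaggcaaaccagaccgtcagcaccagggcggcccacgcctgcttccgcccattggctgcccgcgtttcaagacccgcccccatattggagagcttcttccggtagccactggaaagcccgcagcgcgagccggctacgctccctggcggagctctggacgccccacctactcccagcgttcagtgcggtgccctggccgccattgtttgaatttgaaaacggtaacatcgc
KIF20A: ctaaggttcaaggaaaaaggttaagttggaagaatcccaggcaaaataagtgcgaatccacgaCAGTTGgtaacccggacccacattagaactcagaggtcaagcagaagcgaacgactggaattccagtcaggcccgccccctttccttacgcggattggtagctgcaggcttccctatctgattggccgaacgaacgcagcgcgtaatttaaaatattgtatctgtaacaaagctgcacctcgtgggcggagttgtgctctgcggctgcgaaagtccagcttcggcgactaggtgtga
In KIF16B, the E-box CAGGTG began at base 267 of the window, counted from 1 at the 5′ end, with its middle 44.5 bases from the summit at base 225. A further E-box, CAGTTG, began at base 37. In KIF1A, the E-box CAGCTG began at base 143, with its middle 67.5 bases from the summit at base 213. The windows of KIF18B and KIF20B, which had a peak, held no CANNTG, whereas those of KIF18A and KIF20A, which had none, held 1 each. In these 2 pairs the E-box was thus in the promoter without the peak. Other families differed, as no window of KIF3A, KIF3B or KIF3C held one, and windows of both KIF1A and KIF1B did.

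E-boxes were in fact few in the kinesin promoters. Of 10 kinesin windows with a peak over them, only KIF16B and KIF1A held a CANNTG (20%, 2.52% to 55.6%), and KIF14, KIF18B, KIF1C, KIF20B, KIF21A, KIF22, KIF24 and KIF3C held none. Of 34 kinesin windows with no peak over them, 15 held one (44.1%, 27.2% to 62.1%). These 34 windows came from 27 genes, and some overlapped, so that an E-box of KIF9 was counted more than once. The intervals for them treat related windows as separate. KIF1A and KIF22 had windows in both groups. In all protein-coding genes, CANNTG was in 56.2% of 2454 windows with a peak, in 66.2% of 19745 windows without a peak and in 65.1% of all windows. Since CANNTG reads the same on both strands, both were covered. The narrower forms that NeuroD1 dimers are known to prefer, which are included in CANNTG, were rarer. CAGATG or its reverse complement CATCTG was in 0 of 10 kinesin windows with a peak (0% to 30.8%) and in 2 of 34 without (0.72% to 19.7%). Over all protein-coding genes it was in 8.23% of windows with a peak and 12.7% without. CAGCTG was in 1 of 10 kinesin windows with a peak (KIF1A, 0.25% to 44.5%) and 1 of 34 without (0.07% to 15.3%). Over all genes it was in 18.7% and 17.9%.

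Base composition moved with these counts. The kinesin windows with a peak had a median GC content of 68.0% and those without 63.3%, and the same medians over all protein-coding genes were 68.0% and 61.3%. The median number of CG dinucleotides was 32.5 and 28 in the kinesin windows, and 29 and 19 in all windows. The part of base composition in the E-box counts was not tested. Summits with 50 bases of the window on either side were searched within those bases. CANNTG was found at 1 of 7 such kinesin summits, at KIF16B (14.3%, 0.36% to 57.9%), and at 26.0% of 1506 over all genes. In a stretch of the same length in the middle of each window without a peak it was found in 31.0%. The interval of the 7 kinesin summits contains both of these shares. Peaks outside the promoter windows were not examined for E-boxes. A match is only a run of letters and does not show that NeuroD1 is bound there, nor does a missing match show that it is not.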

How the data were processed

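NeuroD1 ChIP-seq of IMR-32 cells was analysed from 1 deposited peak list, with no replicate. Per the labels, reads were aligned to hg38 with BWA 0.7.17 and peaks were called with MACS2 2.2.7, while the peak names in the file carry the word macs3. The q threshold is not given in the sources used here. The fold enrichment deposited by the authors is the ratio of the ChIP pileup to the local background at the summit, each with 1 added, and the −log10 p and −log10 q values are deposited for the same base. The score deposited by the authors follows from the −log10 q, and the last column is the fold enrichment over the peak width, and neither was used. The number of reads is not in the list.

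Genes and promoter windows were taken from RefSeq of GRCh38.p14 (20037 protein-coding genes, 15843 with a window), and all positions are counted from 1 on hg38. ChIP reads and background at each summit were solved by inverting the Poisson formula of MACS on the deposited ratio and −log10 p. The most frequent pairs of both values gave a weight of 0.98 for the smallest step of the pileup, taken as 1 read, and a genome-wide background of 1.04. With these, 6182 of 6183 peaks were solved within 0.005 on the −log10 p, and for 12 peaks a further solution was within that tolerance. In 1000 peaks simulated with the same formula and read weight, the reads of 100% were recovered. This checks the inversion only, and cannot show that the formula or the weight holds for these data. Intervals are exact Poisson intervals for reads and exact Clopper-Pearson intervals for shares, both at 95%. No test was run across genes.

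The named genes are all members with a peak and the 9 genes of the mitotic and axonal comparison. Further members without a peak, and protein-coding genes that share a peak with a member, are named for completeness. Non-coding genes within 3 kb of the KIF16B, KIF19, KIF22 and KLC4 peaks are not named. Results for some genes of the marker and partner lists are not reported here. The members and lists were chosen with earlier results of these data known. Alternatives were a minimum of 5 on the −log10 q or on the fold enrichment, the summit instead of the whole interval, other distances (0, 1 and 10 kb), peaks given to 1 gene, and ranks by −log10 q. Scripts ran in Python 3.11.15 with scipy 1.17.1, numpy 2.4.6 and pandas 2.3.3, and figures were drawn in matplotlib 3.10.9.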

Additional observations from a re-analysis of the deposited data

How the results depend on the processing

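Between 11 and 16 kinesin genes had a peak under all alternatives, within 1.5 times of the 15 reported. KIF21A, KIF24 and KIF3C were lost with a −log10 q of at least 5, KIF24 with a fold enrichment of at least 5, KIF21A, KIF22 and KLC4 with the gene body alone, KLC4 with 1 kb beside the gene, and KIF24 and KLC4 when each peak went to 1 gene. With 10 kb beside the gene, KIF3B was gained. When peaks with another protein-coding gene within 3 kb were left out, KIF17, KIF1C, KIF24 and KLC4 were lost. No mitotic gene of the short list had a peak under any alternative run for it, but this count could not have changed. The closest of these genes to a peak, KIF11 at 18826 bp, lay outside even the 10 kb setting, and the other settings add no peaks. The axonal count fell from 2 to 1 with a −log10 q of at least 5 and with the gene body alone, in both cases through KIF21A.

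The share of all protein-coding genes with a peak moved with the same settings, from 21.4% to 17.2% with a −log10 q of at least 5, 19.7% with a fold enrichment of at least 5, 16.0% with the gene body alone, 20.1% with 1 kb and 25.1% with 10 kb beside the gene, and 17.8% with each peak given to 1 gene. It was 19.9% without chromosomes 12 and 17 and 14.1% without shared peaks, and both of these alternatives were chosen after the data were seen. The kinesin shares in the same order were 27.9%, 32.6%, 27.9%, 32.6%, 37.2%, 30.2%, 29.7% and 25.6%, each above the share of all genes. All of them re-use 1 peak list and largely the same genes, so they are not separate evidence of a higher kinesin share. No interval was computed for them. KIF16B, at rank 146 by fold enrichment, was at 239 when peaks were ordered by −log10 q, and the cause was not tested. The median fold enrichment lay between 7.23 and 8.37 under the 3 alternatives run for it. With 3 kb in place of 1 kb, or with the summit, 10 genes had a peak at the start, and no other alternative was run for this count. Neither setting could change it. The KIF17 and KIF26A peaks lay 56313 bp and 11662 bp from a start, and the other genes had summits within 321 bp of one. No paired analysis was possible because the ChIP was deposited as a single library. With 10 to 42 reads at the kinesin summits, most peaks cannot be ranked against each other.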

Other observations

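Outside the members, 20 genes of further motors and of kinesin adaptors were examined in the same way, and 4 had a peak (20%, exact Clopper-Pearson interval at the 95% level 5.73% to 43.7%), close to the 21.4% among all protein-coding genes. MADD, an adaptor that links KIF1A and KIF1B to synaptic vesicle precursors, had 2 peaks at its start, with a fold enrichment of 9.63 (21 ChIP reads, 95% exact Poisson interval 13.0 to 32.1) and 5.56 (16 reads, 9.15 to 26.0). The neighbouring gene NR1H3 lay within 3 kb of both. MAPK8IP1, a scaffold that binds kinesin-1, and the minus-end motor KIFC3 each had a peak with a fold enrichment of 7.71 and 15 reads (8.40 to 24.7). None of the mitotic motors CENPE and KIFC1, the mitochondrial adaptors TRAK1, TRAK2, RHOT1 and RHOT2, or KIFAP3 and KIFBP had a peak.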
